A study of Homo sapiens with 12 samples.

Results

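The genes described here carry growth signals from the EGFR family of receptors to RAS, together with 2 brakes on RAS, and they comprise 10 of the 18053 genes targeted by a genome-wide knockout library. They were taken by name: the receptors EGFR, ERBB2 and ERBB3, the adaptor GRB2, the docking protein GAB1, the phosphatase PTPN11 (SHP2), the exchange factors SOS1 and SOS2, and the GTPase-activating proteins NF1 and RASA1. Each was targeted by 4 guides, 40 of 71090 guides in all. EGFR-family receptors bind growth factors, pair and phosphorylate each other, and GRB2 then brings SOS proteins to the membrane, where they load RAS with GTP. GAB1 and PTPN11 extend that signal, ERBB3 has little kinase activity of its own and works through its partners, and NF1 and RASA1 speed up GTP hydrolysis and so switch RAS off.

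The Toronto Knockout version 3 library was delivered by lentivirus to HCC1806, a triple-negative breast cancer line, and to MIA PaCa-2, a pancreatic cancer line. Guides were counted in 12 libraries of genomic DNA from 3 screens, each with 1 start library. The HCC1806 INX-315 screen had 2 libraries in 0.1% DMSO and 2 in 500 nM INX-315, a CDK2 inhibitor. The HCC1806 palbociclib screen had 1 library in DMSO and 1 in palbociclib, a CDK4/6 inhibitor, and the MIA PaCa-2 screen had 1 each in DMSO, 500 nM INX-315 and palbociclib. By the treatment protocol the palbociclib dose was 500 nM in HCC1806 cells but 250 nM in MIA PaCa-2 cells, while the sample labels give one figure in another unit for both. Later libraries are labelled passage 8. The MIA PaCa-2 start was labelled passage 1 and both HCC1806 starts passage 0, and the study's methods describe fewer passages. The study's supplement calls the HCC1806 INX-315 replicates biological, and the labels do not say at which step, infection or later culture, they were separated.

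Library totals ran from 24946956 to 58875726 counts. INX-315 screen DMSO 1 stood apart: 11906 guides had under 30 counts in it, against 4368 in DMSO 2, and over guides its log2 CPM (counts divided by the library total and multiplied by 1000000) correlated at 0.543 with DMSO 2, whereas DMSO 2 correlated with the INX-315 libraries at 0.918 and 0.919, and these with each other at 0.964. Why DMSO 1 stood apart, including whether it holds what its label says, was not tested. Olfactory receptor genes, which serve as cutting controls, had a median log2 change from start of -0.58 in DMSO 1 and of 0.03 to 0.09 in the other later libraries. Main results for the 10 genes are given with and without it, and some of the pathway genes that passed a limit only with it are named as such.

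The first question was whether the cells needed these genes to expand without drug. For each guide, log2(CPM + 0.5) was compared with the same screen's start, and the values of the 4 guides were averaged. These changes have no test within a screen, and a change at or beyond -1 or 1 was counted. In the HCC1806 INX-315 screen, over the mean of both DMSO libraries, 7 of 10 genes lay at or below -1 and 1 at or above 1, whereas 22.1% and 0.299% of all genes did so. In DMSO 2 alone, 6 lay at or below -1, against 13.8% of all genes, and 2 (NF1 and RASA1) at or above 1. The share of all genes at or above 1 in DMSO 2 was not counted. In the HCC1806 palbociclib screen 6 genes lay at or below -1 and none at or above 1, against 14.7% and 0.26% of all genes. In MIA PaCa-2 none of the 10 passed either limit, against 8.99% and 0.0443% of all genes. The median change of the 10 genes was -1.79, -1.35 and -0.01 in these 3 sets, beside -0.46, -0.12 and -0.06 over all genes.

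**Figure D1:**
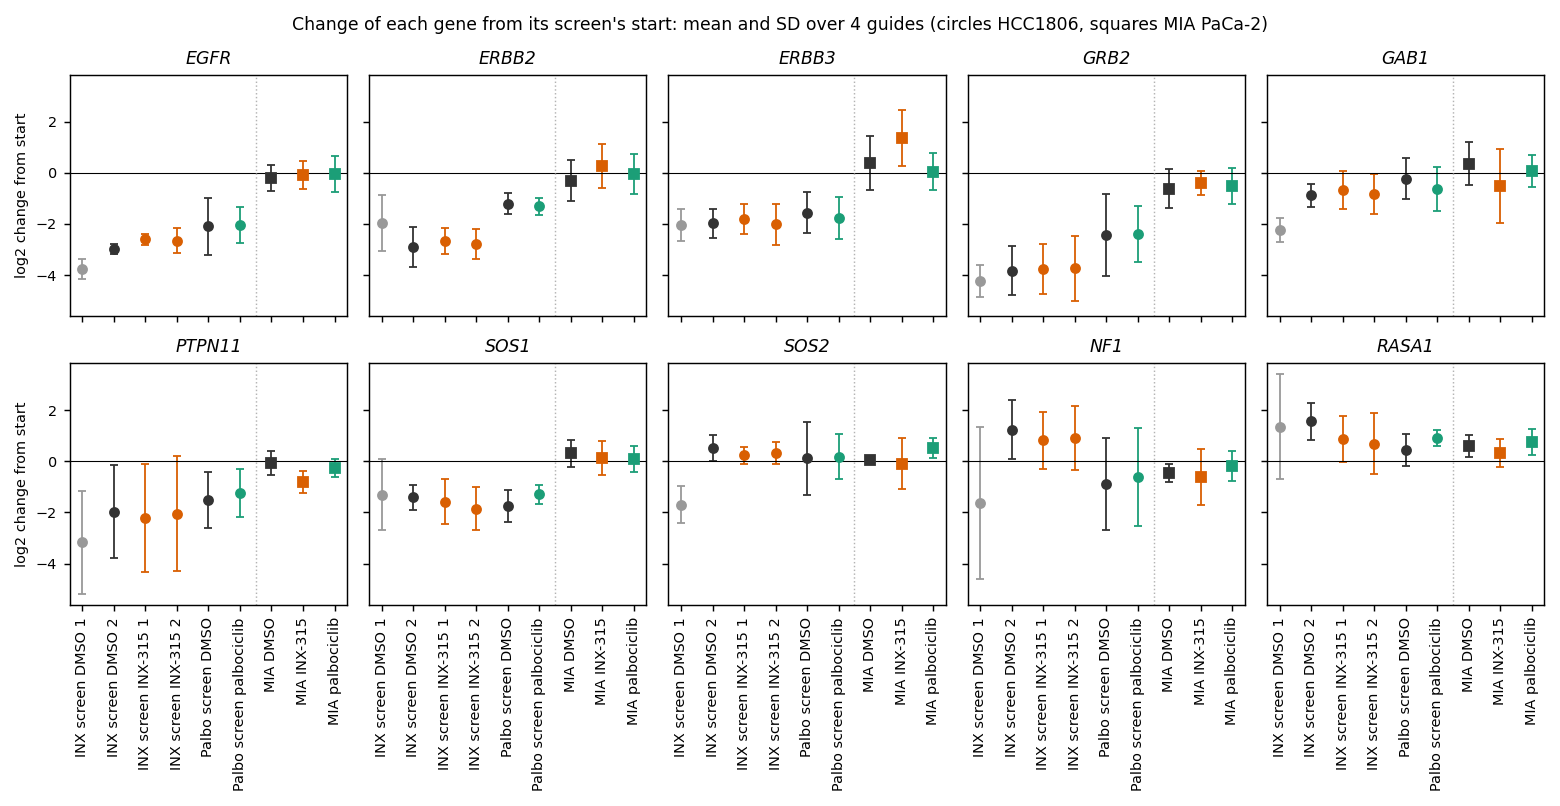
Log2 change from the screen's start (vertical axis) of each gene in each later library (horizontal axis), as the mean over 4 guides with their SD, with circles for HCC1806, squares for MIA PaCa-2, grey for INX-315 screen DMSO 1, black for other DMSO libraries, orange for INX-315 and green for palbociclib. EGFR lay between -3.76 and -2.03 in HCC1806 and between -0.21 and -0.06 in MIA PaCa-2, and RASA1 lay above 0 in each of the 9 libraries.

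EGFR, the receptor for EGF and related ligands, was far below its start in HCC1806. Its summed guides began at 56.3 CPM in the INX-315 screen and stood at 2.1 and 5.4 CPM in DMSO 1 and DMSO 2 and at 7.5 and 6.9 CPM in INX-315. In the palbociclib screen they began at 47.6 CPM and stood at 12 CPM in DMSO and 12.2 CPM in palbociclib. MIA PaCa-2 libraries held 54.7 CPM at the start, 52.7 in DMSO, 57.2 in INX-315 and 65.8 in palbociclib. The lines did not overlap: the 6 HCC1806 changes ran from -3.76 to -2.03, with all 4 guides below the start in each library, and the 3 MIA PaCa-2 changes from -0.21 to -0.06. The 4 EGFR guides were closest together in DMSO 2, with a mean of -2.97 ± 0.20 (SD over 4 guides), and farthest apart in the palbociclib screen DMSO, at -2.09 ± 1.12.

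ERBB2 (HER2), the family member with no known ligand of its own, was also lower in every HCC1806 library. It began at 54.4 CPM and stood at 15.1 and 5.9 CPM in DMSO 1 and DMSO 2 and at 6.8 and 6.1 CPM in INX-315. The palbociclib screen went from 48.2 CPM to 18.9 CPM in DMSO and 18.3 CPM in palbociclib. In MIA PaCa-2 it was at 44.5 CPM at the start, 38.8 in DMSO, 61.0 in INX-315 and 46.6 in palbociclib. The HCC1806 changes ran from -2.89 to -1.20, with both values of the palbociclib screen nearest to 0, and the MIA PaCa-2 changes ran from -0.31 to 0.26.

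ERBB3, which signals mainly through PI3K when paired with ERBB2 or EGFR, was below its start in HCC1806 and near or above it in MIA PaCa-2. From 51.9 CPM it went to 13.2 and 12.7 CPM in DMSO 1 and DMSO 2 and to 14.6 and 13.1 CPM in INX-315. From 53.6 CPM in the palbociclib screen it went to 21.7 CPM in DMSO and 13.7 CPM in palbociclib. MIA PaCa-2 began at 56.3 CPM and held 79.8 CPM in DMSO, 134.8 in INX-315 and 59.8 in palbociclib. Its mean changes were therefore below -1.5 in all 6 HCC1806 libraries, from -2.05 to -1.56, and above 0 in all 3 MIA PaCa-2 libraries, from 0.05 to 1.36. The MIA PaCa-2 guides were split in DMSO (0.39 ± 1.06, SD over 4 guides) and palbociclib (0.05 ± 0.73), with 2 above and 2 below the start in each. In INX-315 all 4 were above it.

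GRB2, the adaptor that couples activated receptors to SOS, was the lowest of the 10 genes in each HCC1806 library. Its guides summed to 44.6 CPM at the start of the INX-315 screen, 0.3 CPM in DMSO 1 and 1.3 CPM in DMSO 2, then 1.4 and 2.5 CPM in INX-315. The DMSO 1 value is 10 counts, and 3 of the 4 guides had 0 counts there, which allows each up to 0.102 CPM. The palbociclib screen began at 39.5 CPM and stood at 9.7 CPM in DMSO and 7.7 CPM in palbociclib. The HCC1806 changes ran from -4.23 to -2.38, and only 1.71% of genes were lower in DMSO 1 and 1.17% in DMSO 2. MIA PaCa-2 kept 26.3 CPM in DMSO, 27.9 in INX-315 and 29.4 in palbociclib of 39.1 CPM at the start, with changes from -0.62 to -0.40.

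SOS1 and SOS2 differed in HCC1806. SOS1 went from 83.7 CPM to 57.1 and 32.6 CPM in DMSO 1 and DMSO 2 and to 32.8 and 28.4 CPM in INX-315, and from 79.4 CPM to 22.7 and 29.3 CPM in DMSO and palbociclib of the other screen. Its HCC1806 changes were between -1.85 and -1.28, and the MIA PaCa-2 changes between 0.10 and 0.31. SOS2 went from 51.4 CPM to 14.8 CPM in DMSO 1 but to 79.6 CPM in DMSO 2, with 62.9 and 68.5 CPM in INX-315. Apart from DMSO 1, where its change was -1.69, SOS2 lay between 0.12 and 0.52 in HCC1806 and between -0.09 and 0.51 in MIA PaCa-2. No test of SOS1 against SOS2 was made.

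PTPN11, the phosphatase that acts between receptors and RAS, and GAB1, a docking protein that PTPN11 binds, were lower in HCC1806 to different degrees. PTPN11 went from 54.7 CPM to 2.2 and 12.9 CPM in DMSO 1 and DMSO 2 and to 12.8 and 18.3 CPM in INX-315, and from 57.7 CPM to 14.9 CPM in DMSO and 20.7 CPM in palbociclib. In MIA PaCa-2 it was at 50.3 CPM at the start, 53.6 in DMSO, 24.9 in INX-315 and 43.7 in palbociclib. The HCC1806 changes ran from -3.17 to -1.23 and the MIA PaCa-2 changes from -0.82 to -0.06. One of its guides (chr12:112856908-112856927, genome build not named in the labels or files) had only 2 to 6 counts in the start libraries and carried almost no information, so that the gene rests on the other 3. Without it the change in DMSO was -1.94 in the palbociclib screen and 0.01 in MIA PaCa-2. Over the mean of both DMSO libraries of the INX-315 screen it was -3.32. There the other 3 guides stood at -4.88, -4.13 and -3.34 in DMSO 1 and at -1.86, -4.54 and -1.19 in DMSO 2. GAB1 ran from -2.25 to -0.23 in HCC1806 and from -0.53 to 0.35 in MIA PaCa-2, and those ranges overlapped.

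The brakes went the other way or moved apart. RASA1, p120 RasGAP, was the only one of the 10 genes above its start in all 9 later libraries, as were 1.2% of all genes. It went from 65.6 CPM to 238.4 and 239.3 CPM in DMSO 1 and DMSO 2 and to 152.5 and 148.5 CPM in INX-315, from 64.3 CPM to 100.9 and 130.4 CPM in DMSO and palbociclib of the other HCC1806 screen, and from 56.8 CPM to 80.5, 81.1 and 93.7 CPM in DMSO, INX-315 and palbociclib of MIA PaCa-2. The changes were 0.43 to 1.56 in HCC1806 and 0.31 to 0.75 in MIA PaCa-2, so the lines overlapped. The near-equal sums in both DMSO libraries came from different guides: in DMSO 1, 2 guides reached 2659 and 3499 counts and the other 2 were below their start, whereas in DMSO 2 all 4 were above it.

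NF1, neurofibromin, had no common direction. From 38.2 CPM it went to 66.2 CPM in DMSO 1, 133.0 CPM in DMSO 2 and 91.6 and 104.1 CPM in INX-315, but it ended at 37.6 and 35.2 CPM in DMSO and palbociclib of the palbociclib screen, which began at 38.3 CPM. The mean change was 1.23 in DMSO 2 and 0.82 and 0.91 in INX-315, and it was -1.63 in DMSO 1 and -0.88 and -0.61 in the palbociclib screen. A single guide (chr17:29509638-29509657) carried much of the gain: it went from 370 to 1893 and 2655 counts in the DMSO libraries and to 1529 and 1669 in INX-315. It was above its start in all 6 HCC1806 libraries, whereas another guide of the gene had 1 count in DMSO 1 and 484 in DMSO 2. All 4 guides were above their start in DMSO 2, from 0.45 to 2.92, and 3 of 4 were in each INX-315 library. In MIA PaCa-2, NF1 lay between -0.61 and -0.19.

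**Figure D2:**
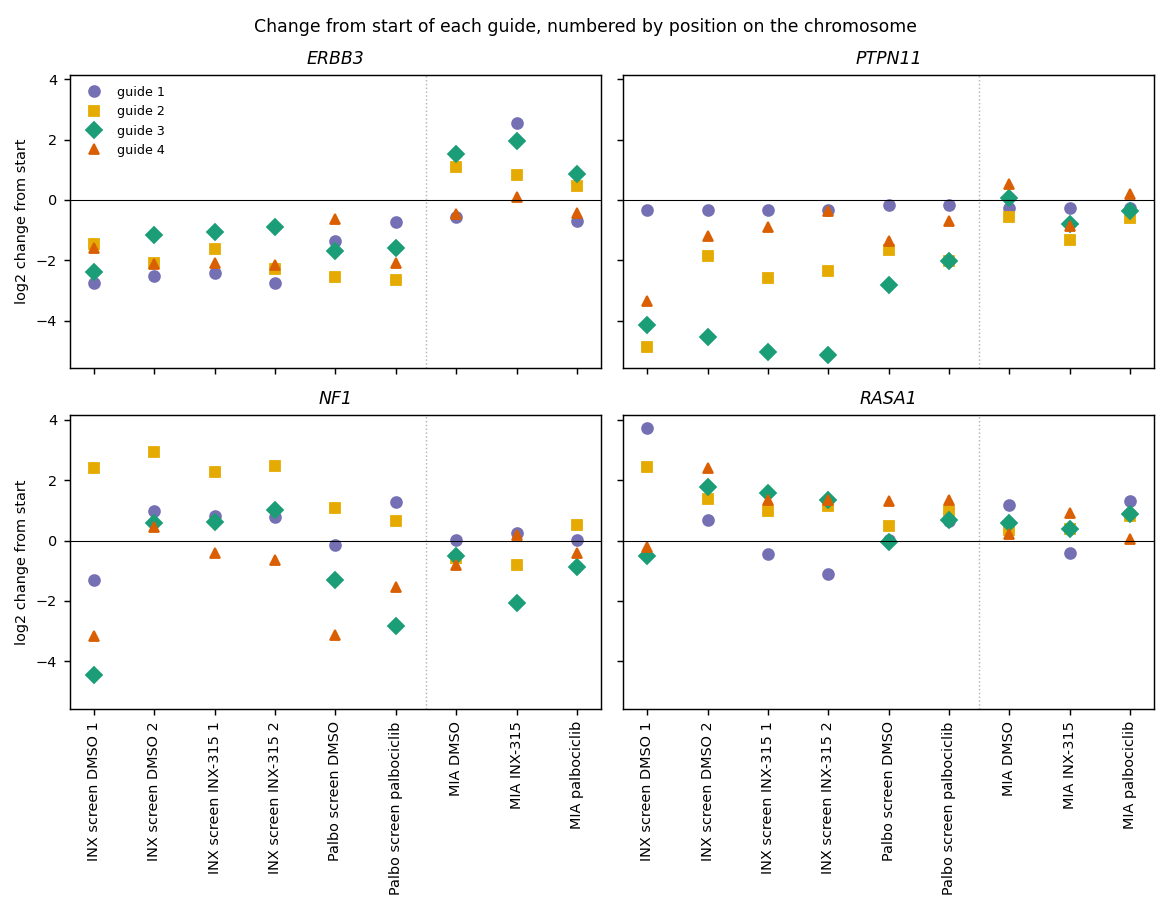
Log2 change from start (vertical axis) of the 4 guides of ERBB3, PTPN11, NF1 and RASA1 in each later library (horizontal axis, HCC1806 left and MIA PaCa-2 right of the dotted line), with 1 symbol per guide, numbered by position. PTPN11 guide 1 stayed near 0, with 2 to 6 counts at the start, NF1 guide 2 was above 0 in all 6 HCC1806 libraries, and ERBB3 guide 1 stood highest in MIA PaCa-2 INX-315.

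Ordered by the median over the 6 HCC1806 libraries, the changes were -3.75 for GRB2, -2.63 for EGFR, -2.30 for ERBB2, -2.01 for PTPN11, -1.89 for ERBB3, -1.49 for SOS1, -0.75 for GAB1, 0.10 for NF1, 0.21 for SOS2 and 0.89 for RASA1. Neighbours in this order had overlapping ranges throughout. Without DMSO 1 the median was -2.65 for ERBB2 and -2.61 for EGFR, and 0.82 for NF1 and 0.23 for SOS2. Each of these pairs thus changed places, and the other genes kept theirs. For 6 genes, EGFR, ERBB2, ERBB3, GRB2, PTPN11 and SOS1, all HCC1806 libraries lay below all MIA PaCa-2 libraries, as did 13.3% of all genes. Libraries of a screen share their start, and the lines differ in how far essential genes moved, with ribosomal protein genes at a median of -4.14 to -2.89 in HCC1806 and of -2.17 to -1.95 in MIA PaCa-2. With each library scaled so that the olfactory receptor median was 0 and the ribosomal median -1, EGFR lay between -0.90 and -0.62 in HCC1806 and between -0.13 and -0.07 in MIA PaCa-2, and GRB2 between -1.16 and -0.71 and between -0.31 and -0.21.

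**Figure D3:**
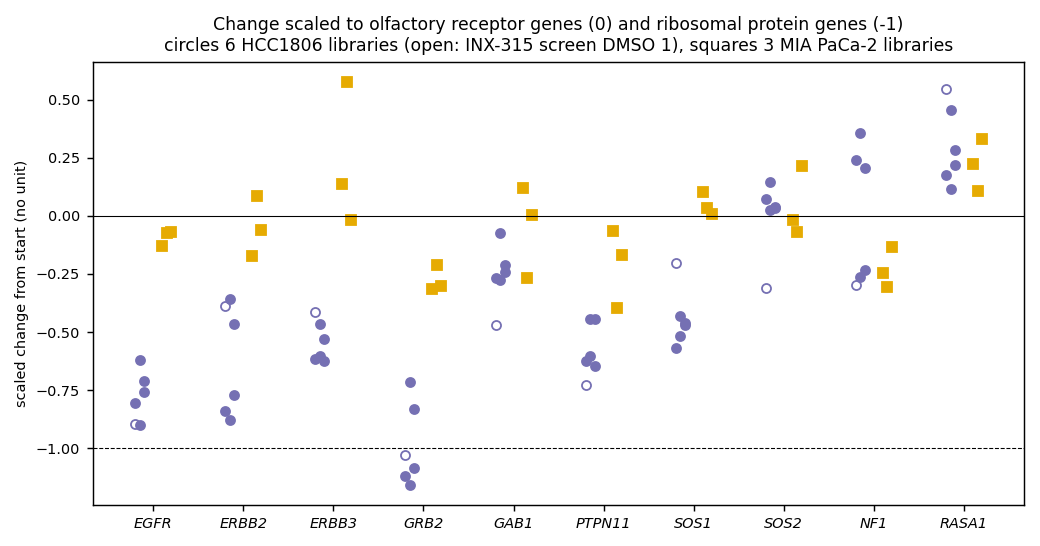
Change from start on a scale where olfactory receptor genes have a median of 0 and ribosomal protein genes of -1 (vertical axis, no unit), for each gene (horizontal axis), with circles for the 6 HCC1806 libraries, open for INX-315 screen DMSO 1, and squares for the 3 MIA PaCa-2 libraries. EGFR, ERBB2, ERBB3, GRB2, PTPN11 and SOS1 kept the lines apart on this scale, while GAB1, SOS2, NF1 and RASA1 overlapped. The share of all genes that kept the lines apart on this scale was not counted.

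The difference between the lines was tested with limma on the change from start in DMSO, with 3 HCC1806 libraries against 1 of MIA PaCa-2, which was assumed to vary like the others. No gene of 18053 passed an adjusted p of 0.05 (0% called), and 767 had an unadjusted p under 0.05. EGFR was lower in HCC1806 by a log2 difference of -2.73 ± 0.74 (SE, limma adjusted p = 0.764), GRB2 by -2.87 ± 0.78 (limma adjusted p = 0.764) and ERBB3 by -2.25 ± 0.60 (limma adjusted p = 0.764). Without INX-315 screen DMSO 1 the same test called 5 of the 10 genes lower in HCC1806, EGFR, ERBB3, GRB2, PTPN11 and SOS1, against 2.3% of all genes.

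Over all 9 later libraries, with drug as a covariate, limma called 6 of the 10 genes lower in HCC1806, whereas 4.73% of all genes were. The log2 differences were -2.47 ± 0.35 (SE, limma adjusted p = 0.00399) for EGFR and -2.77 ± 0.41 (limma adjusted p = 0.0048) for GRB2. ERBB3 differed by -2.49 ± 0.29 (limma adjusted p = 0.00184), SOS1 by -1.71 ± 0.23 (limma adjusted p = 0.00328), ERBB2 by -2.03 ± 0.41 (limma adjusted p = 0.0201) and PTPN11 by -1.55 ± 0.38 (limma adjusted p = 0.0464). GAB1, SOS2, NF1 and RASA1 did not pass. On the scale set by the control genes the same 6 were called, while the split of all calls moved from 854 lower and 64 higher to 491 lower and 819 higher. This fit treats libraries that share a start, and may share an infected pool, as independent, so its p-values are too small. It also takes the drug effect as equal in both lines.

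The next question was whether knockout of these genes changed growth under INX-315. DrugZ turns the log2 ratios of a gene's guides into 1 normZ score per gene, and scores past -2 or 2 were counted as depleted or enriched in the drug. In HCC1806, 1 of the 10 genes was under -2 and none over 2, against 2.77% and 1.44% of all genes. That gene was RASA1, at -2.47 and rank 217 from the lowest, with an adjusted p of 0.889 by DrugZ over guides. Averaged over both pairs, its mean log2 ratio was -0.68 ± 1.67 (SD over 4 guides), with 2 guides up and 2 down. The split came with DMSO 1. In DMSO 2 the 4 guides stood at 0.67, 1.38, 1.78 and 2.39 from the start. All 4 were lower in both INX-315 libraries, at -0.44, 0.99, 1.59 and 1.34 in the first. In the second they stood at -1.10, 1.15, 1.36 and 1.34. With DMSO 2 as the only control RASA1 scored -2.66, and with DMSO 1 as the only control -1.44, inside the threshold. Against the start in place of DMSO it scored 1.21, since it was above its start in both INX-315 libraries.

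**Figure D4:**
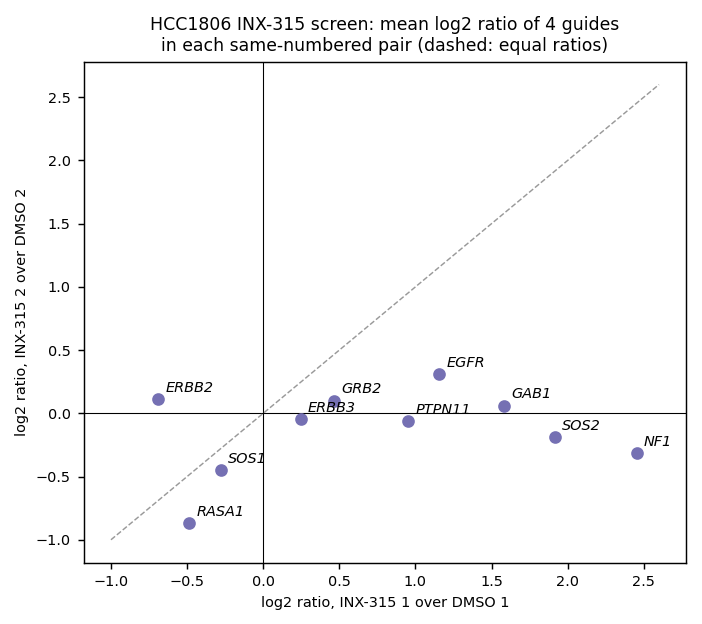
Mean log2 ratio over 4 guides of INX-315 over DMSO in the first same-numbered pair of HCC1806 libraries (horizontal axis) and in the second (vertical axis), 1 point per gene, with a dashed line of equal ratios. NF1 stood at 2.45 in the first pair and -0.32 in the second, SOS2 at 1.92 and -0.19, and RASA1 below 0 in both, at -0.49 and -0.87.

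The other 9 genes scored between -1.47 for SOS1 and 1.02 for GAB1. Several depended on which DMSO library was the control: the mean log2 ratio of GAB1 was 1.58 in the first pair and 0.06 in the second, and that of PTPN11 0.95 and -0.06. EGFR was above DMSO in both, at 1.15 and 0.31, with all 4 guides in that direction, and its normZ was 0.77. The first value rests on DMSO 1, where the EGFR guides had 9 to 20 counts. Genes in general also stood lower there: the median change from start over all genes was -0.85 in DMSO 1 and -0.10 in INX-315 1. With edgeR on the summed guide counts, 2 libraries against 2, no gene of 18018 was called (0%), 457 had an unadjusted p under 0.05, and DESeq2 called 29 genes, none of them among the 10. The edgeR log2 fold change was -0.79 ± 0.43 (SE, edgeR adjusted p = 0.745) for RASA1 and 0.87 ± 0.67 (edgeR adjusted p = 0.745) for EGFR. Without DMSO 1 edgeR called 2 of the 10, RASA1 and NF1, both lower in INX-315, but it also called 15.4% of all genes. Without DMSO 2 it called 9, with NF1 then higher, and 73.7% of all genes, so neither count sets the 10 genes apart.

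In MIA PaCa-2 none of the 10 genes passed -2 or 2 under INX-315, against 2.86% and 1.63% of all genes. ERBB3 came nearest, at 1.93, with a mean log2 ratio of 0.97 ± 1.48 (SD over 4 guides). One guide (chr12:56474145-56474164) made most of that: it had 394 counts at the start, 267 in DMSO and 2130 in INX-315. ERBB2 scored 1.33 with all 4 guides up, EGFR 0.54, GAB1 -1.28 and PTPN11 -1.23. With 1 library a group these scores compare those libraries and have no test.

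Whether the INX-315 effect differed between the lines was tested with limma as an interaction. No gene of 18053 was called (0%), and 432 had an unadjusted p under 0.05. The largest difference among the 10 was that of GAB1, at 1.70 ± 0.92 (SE, limma adjusted p = 0.877) in HCC1806 over MIA PaCa-2, and ERBB3 differed by -0.87 ± 0.49 (limma adjusted p = 0.877). The count rested on the DMSO libraries: 2 of the 10, ERBB3 and GAB1, were called without DMSO 1, as were 32.4% of all genes, and 7 without DMSO 2, as were 69.5%.

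Palbociclib was compared with DMSO in each line, at doses that differ, so the values stand side by side. In HCC1806 none of the 10 genes passed -2 or 2, against 2.56% and 1.98% of all genes. RASA1 had the highest score, 1.61, with all 4 guides up and a mean log2 ratio of 0.48 ± 0.31 (SD over 4 guides), and GAB1 the lowest, -1.33. In MIA PaCa-2 SOS2 was over 2 and none was under -2, against 1.79% and 2.65% of all genes. SOS2 scored 2.14, with all 4 guides up and a mean log2 ratio of 0.47 ± 0.43 (SD over 4 guides), from 56.0 CPM in DMSO to 82.4 CPM in palbociclib. ERBB3 had the lowest score there, -1.67, NF1 scored 1.15 and EGFR 0.78.

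Between INX-315 at 500 nM and palbociclib at 250 nM in MIA PaCa-2, 1 gene was over 2 and none under -2, against 1.46% and 2.91% of all genes. ERBB3 scored 2.71, rank 31 from the highest, with all 4 guides up, at 134.8 CPM in INX-315 and 59.8 CPM in palbociclib. By the median of its guides, which gives the single high guide less weight, it scored 1.64. EGFR scored 0.12, GRB2 0.46 and SOS1 0.24.

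**Figure D5:**
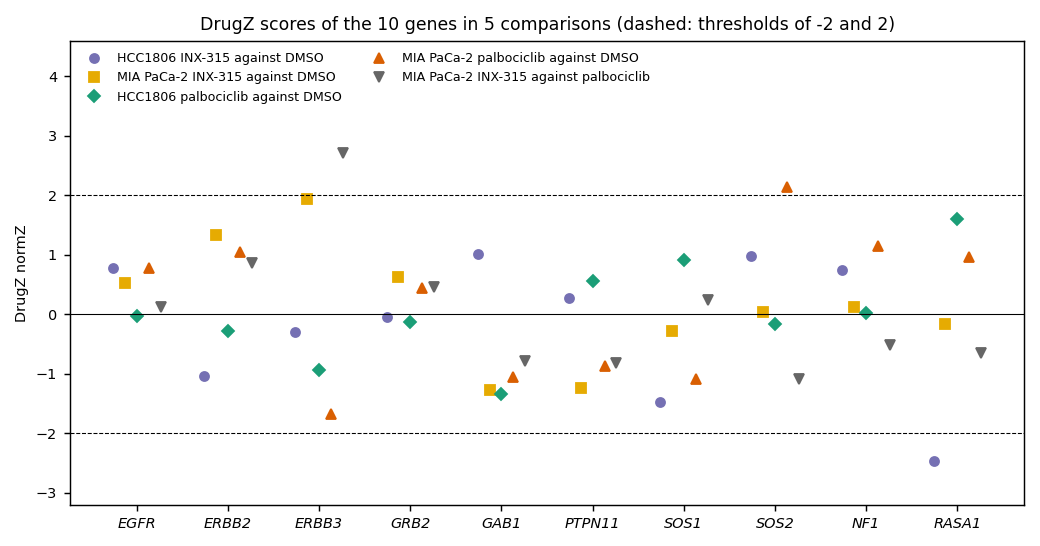
DrugZ normZ (vertical axis) of the 10 genes (horizontal axis) in 5 comparisons, 1 symbol each, with dashed lines at -2 and 2. Only RASA1 in HCC1806 INX-315 (-2.47), SOS2 in MIA PaCa-2 palbociclib (2.14) and ERBB3 in MIA PaCa-2 INX-315 over palbociclib (2.71) lay past a line.

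With the start library as the control in place of DMSO, DrugZ put 3 of the 10 genes past the threshold in HCC1806 INX-315, at -3.43 for GRB2, -2.45 for ERBB2 and -2.36 for EGFR, and 6.7% of all genes under -2. In HCC1806 palbociclib it put 2 there, GRB2 at -2.38 and EGFR at -2.02, and 6.44% of all genes under -2. EGFR, ERBB2 and GRB2 were below their start in the drug libraries as they were in DMSO, and their scores of drug over DMSO in HCC1806 lay between -1.04 and 0.77.

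Other genes of the pathway were counted in 9 lists, with 111 of 114 listed genes found in the guide library. Their changes from start in the INX-315 screen are read in DMSO 2 alone, because many passed only through DMSO 1. Of all genes, 13.8% were at or below -1 in DMSO 2, with a median of -0.11. In the palbociclib screen DMSO 14.7% were, and in MIA PaCa-2 DMSO 8.99%. Of 16 docking and adaptor proteins, 3 (CRKL, SHC1 and GRB7) were at or below -1 in DMSO 2, with a list median of -0.38. In the palbociclib screen 2 (CRKL and SHC1) were, with a list median of -0.08. CRKL, an adaptor that binds docking proteins, stood at -3.69 and -2.77, and SHC1, which links phosphorylated receptors to GRB2, at -1.84 and -1.01. FRS3 and GRB10 passed over the mean of both DMSO libraries but stood at -0.80 and -0.11 in DMSO 2. In MIA PaCa-2 none of the 16 was at or below -1, CRKL stood at -0.69 and SHC1 at 0.00.

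None of 10 ERBB ligands, 25 other receptor tyrosine kinases, 6 other RAS exchange factors or 12 ERBB partners and receptor brakes was at or below -1 in DMSO 2. In DMSO 1, 7, 11, 4 and 3 of them were, but the median over all genes was -0.85 there and 51 of the 111 pathway genes passed. Over the mean of both, 1, 4, 2 and 1 were, beside 22.1% of all genes. DDR1, a collagen receptor, was at -3.01 in DMSO 1 and -0.91 in DMSO 2, RASGRF2 at -2.19 and -0.50, HBEGF at -1.84 and -0.67, and CBL, a ligase that marks receptors for degradation, at -1.76 and -0.54. ALK alone of the kinases passed in the palbociclib screen, IGF1R, the IGF receptor, alone in MIA PaCa-2, at -1.35, and ERRFI1, which inhibits EGFR, was just past -1 in the palbociclib screen.

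PDPK1, the kinase that activates AKT and 1 of 10 genes of the PI3K branch, was at -3.31 in DMSO 2, -2.17 in the palbociclib screen and -1.97 in MIA PaCa-2. None of 8 other RAS GTPase-activating proteins passed -1 or 1 in these 3 libraries. In DMSO 1, where the median over all genes was -0.85, 2 were at or below -1. Of 8 SPRED, Sprouty and LZTR1 brakes, CUL3, a ubiquitin ligase scaffold with many other substrates, was at -1.98, -3.07 and -1.44.

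Under drug, few of these genes passed -2 or 2. Of 111, 2 were depleted and 3 enriched in HCC1806 INX-315, beside 2.77% and 1.44% of all genes, and 6 and 1 in MIA PaCa-2 INX-315, beside 2.86% and 1.63%. With palbociclib 1 and 2 were in HCC1806, beside 2.56% and 1.98%, and 2 and 3 in MIA PaCa-2, beside 2.65% and 1.79%. In MIA PaCa-2 INX-315, PTPN12, a phosphatase acting on receptors and their partners, scored -3.19 and the receptor EPHA2 -2.71. Against palbociclib they scored -3.79 and -3.58, in a comparison that shares the INX-315 library. MRAS, a RAS relative that acts with SHOC2, scored 2.82 in INX-315 and 2.73 in palbociclib in MIA PaCa-2, while SHOC2 scored -2.10 and -0.71, and these comparisons share their DMSO library.

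Across the 9 later libraries, the genes whose change from start was most like that of EGFR were POLR2H (Pearson r = 0.992), CDC16 (0.991), FNTB (0.990), PYROXD1 (0.990) and EED (0.990). GRB2 was most like PYROXD1 (0.997), SGOL1, RCC1, CDC45 and LAMTOR1. PTPN11 was most like KCNE3 (0.992), SCD, TAX1BP3, TRAPPC8 and EIF2S3, and NF1 was most like RAB8A (0.983), BDKRB2, MAPK8IP2, CYYR1 and YIPF1. Among the 10 genes, EGFR correlated with GRB2 at 0.983, PTPN11 at 0.948 and ERBB3 at 0.925, and with RASA1 at -0.69. These 9 points share starts and screens and fall into 2 lines, so the values describe the pattern and have no test.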

How the data were processed

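The authors trimmed reads of the PCR-amplified guide region with Trim Galore and counted guides with MAGeCK (5.9, per the submitters' processing notes). The deposited counts are raw reads per guide, without molecular identifiers. The deposited normalized signal is the counts of each library times 1 factor, used here as an alternative. No source used here names the genome build of the guide positions, and guide sequences were not analysed here. The 10 genes and the pathway lists were chosen with earlier results of these data known.

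Counts were scaled to 1e+07 per library, and DrugZ was rewritten in Python 3.11.15 (pseudocount 5, window of 1000 guides). Non-targeting guides, 3 names, were left out. Same-numbered libraries were paired. Changes from start used log2(CPM + 0.5). edgeR 4.0.16 (quasi-likelihood), DESeq2 1.42.0 and limma 3.58.1 ran across all genes in R 4.3.3, with Benjamini-Hochberg adjusted p-values called under 0.05. Within the INX-315 screen no number pairs the libraries: deviations of same-numbered libraries from their group means correlated at -0.0038. All of the 10 genes are named, pathway genes where they had the largest values past a threshold (up to 4 per list and comparison), and, for EGFR, GRB2, PTPN11 and NF1, the 5 most correlated genes with an SD of at least 0.5. Scripts were tested on simulated data. Counting intervals (Wilson, 95%) reached 64.9% of the value for GRB2 in DMSO 1, the sparsest sum, and cover counting error only. Alternatives included pseudocounts, filters, scaling, thresholds, pairing and leaving out libraries. Some genes of the pathway lists are not reported here.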

Additional observations from a re-analysis of the deposited data

Results flagged for a closer look

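Over all 9 later libraries, limma called 6 of the 10 genes lower in HCC1806 in their change from start (HCC1806 minus MIA PaCa-2, log2), beside 4.73% of all genes. Libraries that share a start were treated as independent in this fit, so its p-values are too small. The differences were -2.47 for EGFR, -2.03 for ERBB2, -2.49 for ERBB3, -2.77 for GRB2, -1.55 for PTPN11 and -1.71 for SOS1. Each of these genes was lower in 6 of 6 HCC1806 libraries than in any MIA PaCa-2 library, as were 13.3% of all genes. The lines were screened separately and from starts at different passages, so line and screen cannot be told apart. In the test on DMSO libraries alone none of the 6 passed.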

How the results depend on the processing

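The counts of genes past -1 or 1 from the start stayed within 1.5 times their value under another pseudocount, filter, centring or summary of guides. In the INX-315 screen it was 8 without DMSO 1, as 6 low and 2 high, and 10 without DMSO 2, as 9 low and 1 high. Without DMSO 1, GAB1 (-0.88) no longer passed -1 and NF1 (1.23) passed 1. In HCC1806 INX-315 the start as control gave 3 genes past normZ -2 or 2, with RASA1 at 1.21 (1214 of all genes in place of 760), a threshold of 3 gave 0, leaving out libraries gave 0 to 1, and scoring with no replicate block gave 1. In MIA PaCa-2 INX-315, a pseudocount of 20 and the start as control each gave 1 (ERBB3), and in HCC1806 palbociclib the start as control gave 2. In MIA PaCa-2 palbociclib the start as control, the guides' median and a threshold of 3 each gave 0, as did the guides' median and the threshold of 3 for INX-315 against palbociclib.

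edgeR with a replicate block called 0 of the 10 genes, and 7 of all genes where the fit without it called 0. Leaving out libraries gave 0 to 9 of the 10, and the fold changes then ran from -1.45 to 0.13 for ERBB2, from -0.15 to 0.11 for ERBB3, from -0.29 to 1.93 for SOS2 and from -0.46 to 0.34 for NF1. Over all genes, dropping DMSO 1 gave 1530 calls below 0 and 1238 above, dropping DMSO 2 gave 6580 below and 6706 above, and dropping one or the other INX-315 library gave 1 below. The line difference went from 0 of the 10 genes to 6 over all 9 libraries, and to 6 in 2 fits chosen after seeing the data, scaled to control genes or less DMSO 1 (1862 lower and 801 higher over all genes), with SOS2 at 0.14 in the latter. Leaving out DMSO libraries gave 0 to 5 (415 lower and 20 higher over all genes without DMSO 1), with SOS2 from -0.83 to 0.28 and NF1 from -0.78 to 0.65. The INX-315 by line count was 0 to 7 when libraries were left out, with GRB2 from -0.14 to 0.26, SOS2 from -0.11 to 2.10 and NF1 from -0.22 to 2.64, and GRB2 was at -0.0055 with a pseudocount of 2 CPM. Over all genes, dropping DMSO 1 then gave 1936 below and 3907 above, and dropping DMSO 2 gave 1750 and 10791. It was 0 of the 10 with a replicate block within HCC1806. With 1 library left in an arm, it was assumed to vary like the other groups. The cause of these shifts was not tested. Depth limits GRB2 most, whose 4 guides summed to 10 to 62 counts in the later libraries of the HCC1806 INX-315 screen.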
